A study of Sus scrofa with 4 samples.

Results

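The genes described here encode the fibrous collagen matrix of bone and the proteins that modify, cross-link and degrade it. The list named 34 genes grouped by function and matched by symbol, and 33 of them were found among the 20648 genes of the count matrices. COL6A1 had no entry under that symbol and is not reported. The cells, from Bama mini-pigs aged 8 months, were taken from bone that had regenerated and were profiled with the 10x Genomics 3′ method after digestion with type I collagenase and lysis of red cells. Bone given a peptide called 1797 (2 libraries) was compared with bone given a control peptide (2 libraries); breed, age and tissue were the same. Other controls mentioned for the series were not analysed here. The labels give no dose or treatment time, and do not say that the libraries came from separate animals, so the p-values speak only of spread among these 4 libraries, part of which may be technical.

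Bone matrix is mostly type I collagen, a heterotrimer of chains from COL1A1 and COL1A2, into whose fibrils types III and V collagen are built. New chains are hydroxylated and folded in the endoplasmic reticulum, secreted, trimmed, and cross-linked outside the cell by lysyl oxidases. Osteoblasts and fibroblasts make most of this matrix, while matrix metalloproteinases degrade it and the tissue inhibitors of metalloproteinases restrain them. Small leucine-rich proteoglycans such as decorin and biglycan sit on the fibrils and affect their spacing.

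After filtering, 49137 cells remained, between 11466 and 12765 per library. They held 83065127 to 93720179 UMIs (unique molecular identifiers, each counting 1 captured transcript) per library. Library 1 of the 1797 group had 1159 barcodes under 200 genes, against 55 to 309 in the other libraries, and a median mitochondrial share of 4.18%, against 2.82% to 2.97%. Any pair of libraries shared 42 to 63 cell barcodes. Cell classes were named from marker genes that did not include the 33 genes, which were also kept out of the clustering. A class with osteoblast markers, called mesenchymal here, held 726 cells, 339 and 45 of them with the 1797 peptide and 119 and 223 with the control peptide. RUNX2, the osteoblast transcription factor, stood at 2354 to 2998 CPM (a gene's UMIs for each 1000000 UMIs of the class in a library) in this class, and PDGFRA, a fibroblast marker, at 196 to 346. Markers of other cells were present too: the summed level of the 7 monocyte markers was 1308 to 1948 CPM and of the 8 neutrophil markers 62.4 to 922. Most of the monocyte sum came from VCAN (738 to 1215 CPM) and THBS1 (338 to 852 CPM). Both are also among the further matrix genes taken below, so the sum does not measure monocyte transcripts. CD14 was at 3.38 to 10.4, FCN1 at 4.22 to 15.3 and IL1B at 7.17 to 26.9 CPM. No marker of these lists was at 0 in all 4 libraries. The part of other cells' transcripts in the results below was not tested. A shallow cluster of 613 cells (median 832 UMIs), led by CA3, CRABP1 and TAGLN, also had osteoblast markers and held COL1A1 at 11269, 2728, 2742 and 11053 CPM. It was kept apart from the mesenchymal class because of its depth, and made up 1.60%, 0.339%, 1.93% and 1.13% of the cells.

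All levels are in CPM. Because the 3′ method counts transcript ends, and because genes differ in how well their ends are annotated, levels are compared between classes and libraries for the same gene, not between genes. The 4 values of a gene are always given in the order 1797 library 1, 1797 library 2, control library 1 and control library 2.

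The mesenchymal class had the highest median level of 18 of the 33 genes, the chondrocyte-like class of 9 and the pericyte- or smooth muscle-like class of 3. In 30 of the 33 genes the mesenchymal level was at least 3 times the T cell-like level in every library. The T cell-like class serves as the reference for transcripts free in the suspension, since lymphocytes are not known as makers of fibrous collagen. These class levels are a description without a test. The chondrocyte-like class rested on 79, 19, 3 and 14 cells and the pericyte-like class on 311, 16, 17 and 97 cells, which limits both.

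**Figure D1:**
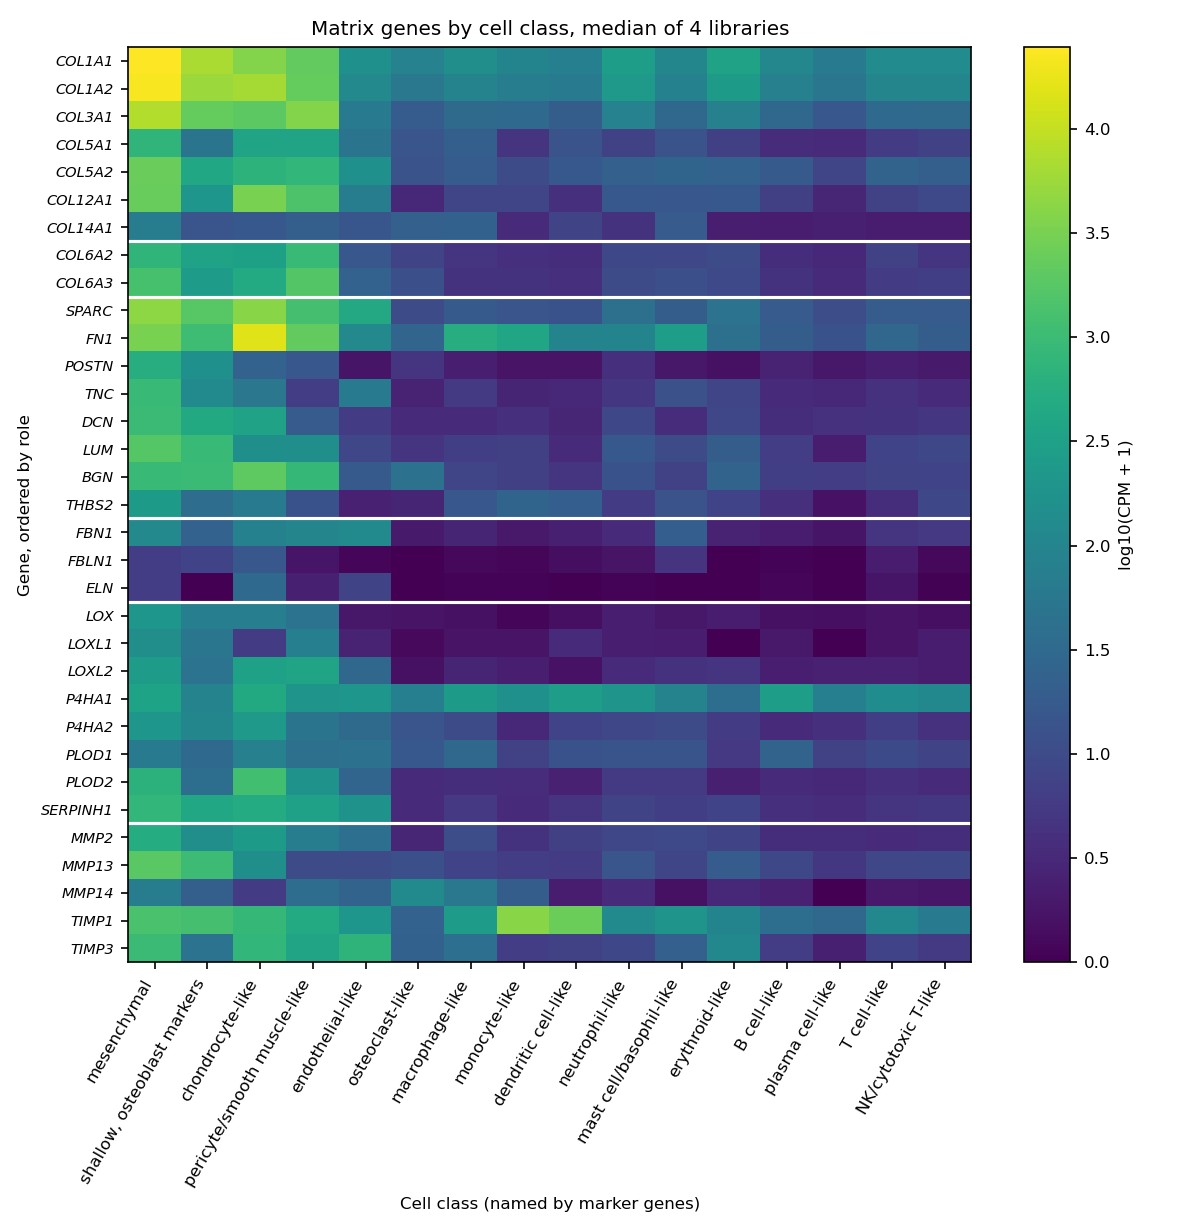
Levels of the 33 genes (vertical axis, grouped by role with white lines) in 16 cell classes (horizontal axis), as the log10 of the median CPM of 4 libraries plus 1. COL1A1, at a median of 24774 CPM in the mesenchymal class, is brightest at the left, while TIMP1 is brightest in the monocyte-like class (4175 CPM) and P4HA1 is visible in every class.

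Type I collagen chains were concentrated in the mesenchymal class. COL1A1 (chromosome 12, 26379087 to 26397180, Sscrofa11.1) stood there at 23884, 22532, 63860.4 and 25664 CPM, and COL1A2 (chromosome 9, 74174484 to 74210407) at 20869, 17623, 49416 and 24142 CPM. Control library 1 lay far above the other 3 libraries for both chains. The class held 0.355% to 2.77% of the cells but 83.3% to 91.1% of all COL1A1 UMIs and 77.4% to 92.2% of all COL1A2 UMIs. In the T cell-like class COL1A1 stood at 112, 23.4, 145 and 184 CPM. The low value of 1797 library 2 in T cell-like cells fell in the library with the smallest share of mesenchymal cells.

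COL3A1, the single chain of type III collagen, which is plentiful in young and healing connective tissue, reached 9299, 5954, 4097 and 11315 CPM in the mesenchymal class and 4635, 4409, 2731 and 3095 CPM in the pericyte-like class. The ranges of these classes overlapped, while within each library the mesenchymal level was the higher. COL5A1 and COL5A2 encode chains of type V collagen, which helps to start fibrils, and stood at 665 to 971 and 2249 to 2918 CPM in mesenchymal cells. For COL5A2 this range lay above every library of every other class. For COL5A1 the chondrocyte-like level in control library 1 (694 CPM) fell inside it. COL5A2 and COL3A1 lie next to each other on chromosome 15, at 93611856 to 93981131 and 93556914 to 93595678. COL12A1, a fibril-associated collagen, was at 3023 to 5209.9 CPM in chondrocyte-like cells, above its mesenchymal range of 1075 to 2591 CPM. COL14A1, of the same kind, had its highest median in mesenchymal cells (44.7 to 93.2 CPM), although single libraries of chondrocyte-like (138 CPM) and osteoclast-like cells (127 CPM) were higher. It was also present in macrophage-like cells at 16.5 to 40.5 CPM, against 0.778 to 1.72 CPM in T cell-like cells.

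Type VI collagen, which forms beaded filaments around cells, had its highest median in the pericyte-like class. COL6A2 was at 948, 1155, 858 and 920.0 CPM there and at 848, 661, 325 and 868 CPM in mesenchymal cells. COL6A3 was at 1908, 1973, 1052 and 1369 CPM in the pericyte-like class and at 1367, 1317, 525 and 1314 CPM in mesenchymal cells. The ranges of these classes overlapped for both genes, but within each of the 4 libraries the pericyte-like level was the higher.

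Among the glycoproteins and proteoglycans, SPARC, a collagen-binding protein also called osteonectin, was at 4466, 3516, 6987 and 4506 CPM in mesenchymal cells, and its range overlapped that of chondrocyte-like cells (2481 to 5548 CPM). Endothelial-like cells held SPARC at 435 to 518 CPM, against 4.73 to 24 CPM in T cell-like cells. FN1, fibronectin, a scaffold on which collagen is assembled, was highest in chondrocyte-like cells at 9108 to 23839.5 CPM. It followed at 3807, 3421, 2059.6 and 3019.6 CPM in mesenchymal cells and 1703 to 2459.7 CPM in pericyte-like cells. FN1 was also above the T cell-like level (16.8 to 85.4 CPM) in blood-derived cells, at 161 to 885 CPM in macrophage-like, 174 to 570.1 CPM in monocyte-like and 255 to 455 CPM in mast cell- or basophil-like cells. Mesenchymal cells held 16.4% to 58.2% of all FN1 UMIs.

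POSTN and TNC, matricellular proteins of healing connective tissue, were largely mesenchymal: 88.5% to 93.7% of POSTN UMIs and 84.1% to 85.9% of TNC UMIs lay in the mesenchymal class. DCN (decorin) and LUM (lumican), small proteoglycans whose genes lie side by side on chromosome 5, were there at 514 to 1179 and 1319.9 to 2155 CPM. In pericyte-like cells DCN was at 4.09 to 21.6 CPM, while LUM was at 123 to 197 CPM. BGN (biglycan) was at 842 to 1321 CPM in mesenchymal, 1059 to 3468 CPM in chondrocyte-like and 819 to 1049 CPM in pericyte-like cells. Osteoclast-like cells also held BGN, at 30.8, 47.1, 55.2 and 40.5 CPM against 1.63 to 7.9 CPM in T cell-like cells. THBS2, thrombospondin 2, was at 286, 218, 137 and 510.5 CPM in mesenchymal cells and at 15.2 to 39.1 CPM in monocyte-like cells.

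Of the elastic-fibre genes, FBN1, which encodes the microfibril protein fibrillin 1, was at 94.6, 138, 73.0 and 151 CPM in the mesenchymal class and at 114, 88.8, 132 and 133 CPM in endothelial-like cells, with overlapping ranges. ELN, elastin, was at 1.46 to 8.33 CPM and FBLN1, fibulin 1, at 0.422 to 8.01 CPM in mesenchymal cells. FBLN1 in control library 1 rested on 1 UMI, and ELN in 1797 library 2 on 2 UMIs. ELN in endothelial-like cells ranged from 0 to 29.99 CPM, so that these data do not order its sources.

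Of the collagen-processing genes, the lysyl oxidases LOX and LOXL1 had their highest median in mesenchymal cells (147 to 315 and 89.0 to 198 CPM), whereas LOXL2 was at 225 to 477 CPM in pericyte-like and 159 to 299 CPM in mesenchymal cells. PLOD2, the lysyl hydroxylase that acts on the collagen telopeptides, was at 582 to 846 CPM in mesenchymal cells and at 0.707 to 5.29 CPM in T cell-like cells. SERPINH1, the collagen chaperone HSP47, was at 771, 606, 986 and 881 CPM in mesenchymal cells and at 161 to 208 CPM in endothelial-like cells, whose COL1A1 level (21.0 to 199 CPM) was near that of T cell-like cells. P4HA2, a prolyl 4-hydroxylase subunit, was at 163 to 239 CPM in mesenchymal cells. Its relative P4HA1 was not restricted: it was at 331 to 396 CPM in mesenchymal, 242 to 290.0 CPM in B cell-like and 122 to 158 CPM in T cell-like cells, and mesenchymal cells held 3.07% to 16% of its UMIs. PLOD1, another lysyl hydroxylase, was at 55.1 to 70.0 CPM in mesenchymal and 25.6 to 32.4 CPM in macrophage-like cells. The highest medians of PLOD2 (666 to 2586 CPM), P4HA1 (303 to 553), P4HA2 (124 to 737) and PLOD1 (31.6 to 347) lay in chondrocyte-like cells. These ranges overlapped the mesenchymal ones. LOXL2 was at 277 to 520 CPM in chondrocyte-like cells, overlapping its pericyte-like range.

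The proteases and inhibitors were divided among lineages. MMP13, a collagenase of bone and cartilage, was at 3197, 1815, 767 and 1909.8 CPM in mesenchymal cells, which held 79.2% to 93.5% of its UMIs. MMP2, a gelatinase, was at 510.4, 438, 536 and 774 CPM there. MMP14, the membrane-bound protease that activates pro-MMP2, had its highest median in osteoclast-like cells at 121, 129, 85.5 and 130.2 CPM. It was at 78.7, 64.1, 33.8 and 121 CPM in mesenchymal cells and 59.4, 55.6, 35.9 and 57.1 CPM in macrophage-like cells, against 0.762 to 2.36 CPM in T cell-like cells. The osteoclast-like and mesenchymal ranges overlapped, and within each library the osteoclast-like level was the higher.

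TIMP1, an inhibitor of these proteases, had its highest medians in monocyte-like and dendritic cell-like cells. Monocyte-like cells held it at 4094, 3815, 4375 and 4255 CPM, dendritic cell-like cells at 2864, 2669.9, 1854 and 2517 CPM, and mesenchymal cells at 2306, 1173, 842 and 1518 CPM. Other myeloid classes were below the mesenchymal level: macrophage-like cells at 165 to 302, neutrophil-like at 109 to 238 and osteoclast-like at 12.6 to 63.3 CPM. Monocyte-like cells carried 41.7% to 73.3% of all TIMP1 UMIs and mesenchymal cells 2.59% to 26.1%. TIMP3, the inhibitor that binds to the matrix, was instead at 1311, 1091, 867 and 839 CPM in mesenchymal cells and 872, 574, 909 and 524 CPM in endothelial-like cells, with 2.01 to 7.51 CPM in monocyte-like cells.

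The mesenchymal class was itself divided, and the matrix genes differed between its sub-clusters. The sub-clusters were found without the 33 genes but in the same cells, so the levels below, pooled over libraries, carry no test. A sub-cluster of 56 cells led by BGLAP (osteocalcin) and IFITM5, both genes of mineralising osteoblasts, had COL1A1 at 110768 CPM, COL1A2 at 86467 CPM and SPARC at 11621 CPM. In the other 6 sub-clusters shown in the plot, COL1A1 ranged from 7446 to 27454 CPM and SPARC from 2242 to 5090.4 CPM. The BGLAP-led cells were low in part of the remaining matrix and high in another part. Among the low genes, COL3A1 was at 897 CPM against 4657 to 13501 CPM in the others. COL6A3 was at 40.8 against 1141 to 2201 CPM, and COL12A1 at 457 against 1970.2 to 2898 CPM. TNC was at 75.3 CPM in them against 343 to 1424 CPM, TIMP3 at 108 against 789.9 to 1537 CPM, and LOXL1 at 1.06 CPM, from 2 UMIs, against 72.1 to 218 CPM. LOX was at 254 CPM against 99.7 to 349 CPM. DCN, at 1823 against 332 to 1209 CPM, and SERPINH1, at 1371 against 566 to 1020 CPM, were instead highest in the BGLAP-led cells. So, among the drawn sub-clusters, were PLOD2, at 989 against 536 to 837 CPM, and COL5A1, at 1033 against 587 to 766 CPM. BGN, LUM, COL5A2, P4HA1, P4HA2 and MMP2 lay within the range of the others. A shallower sub-cluster with osteoblast markers (77 cells, median 3645 UMIs), not drawn, shared part of this: it had COL1A1 at 39097, COL3A1 at 1277, COL6A3 at 274, COL12A1 at 763 and LOXL1 at 42.6 CPM. Its TIMP3, at 1992 CPM, and TNC, at 419.6 CPM, were not below the ranges of the other 6. Its COL5A1, at 1092 CPM, was above that of the BGLAP-led cells.

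The pattern was present in each library with at least 5 cells of the BGLAP-led sub-cluster: COL1A1 was at 93851, 128287 and 80645 CPM in 1797 library 1, control library 1 and control library 2, and COL3A1 at 1818, 478 and 1066 CPM. Other sub-clusters stood out for other genes. Cells led by ANKH, LIMCH1 and WIF1 (149 cells) had MMP13 at 4596, 4206, 2225 and 3010.1 CPM, the highest of the drawn sub-clusters with at least 5 cells in every library but 1797 library 1, where the cycling cells were at 6358 CPM. Their TIMP1, at 2653 CPM pooled, was not the highest in 1797 library 1 or control library 1. Cells led by SFRP4 (140 cells) had COL3A1 at 13501 CPM, THBS2 at 655 CPM and MMP14 at 163 CPM, each the highest among the 7 drawn sub-clusters but, for COL3A1 and THBS2, not among those of low depth. Of these 140 cells, 101 came from control library 2. Their leading genes also included S100A12, a neutrophil marker, and NPG4, PR39 and PMAP-23, which were leading genes of a neutrophil-like cluster as well. The part of neutrophil transcripts in their levels was not tested. Cells led by CXCL12, LEPR and laminin and basement-membrane collagen genes (96 cells) had COL1A1 at 7446 CPM, COL6A3 at 2201 CPM and FBN1 at 260.0 CPM. This was the lowest COL1A1 and the highest COL6A3 and FBN1 of the 7, in each library as well. A small COL2A1-led, chondrocyte-like sub-cluster of 24 cells had FN1 at 14407 CPM and BGN at 2873 CPM.

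**Figure D2:**
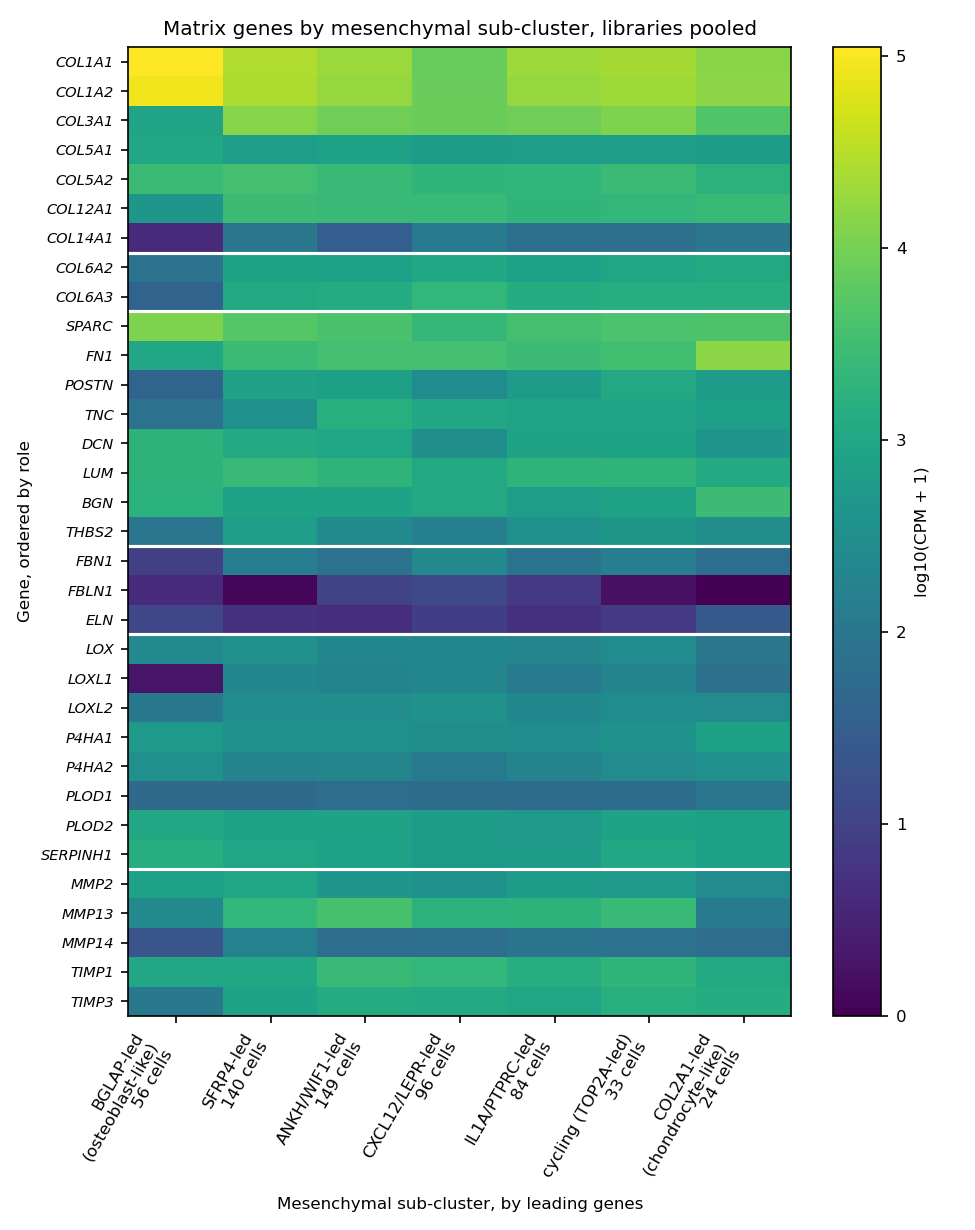
Levels of the 33 genes (vertical axis) in 7 mesenchymal sub-clusters with their cell numbers (horizontal axis), as log10 of pooled CPM plus 1; 3 sub-clusters of low depth are not drawn. The BGLAP-led column is brightest for COL1A1 (110768 CPM) and darkest for LOXL1 (1.06 CPM).

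The libraries differed in these sub-clusters. BGLAP-led cells supplied 7.94%, 8.14%, 42.1% and 2.91% of the mesenchymal UMIs, and SFRP4-led cells 16.2%, 8.28%, 0% and 49.3%. Control library 1 was thus high in the former and had no cell of the latter, and control library 2 was the reverse. The controls differed from each other more than the 1797 libraries did in both shares. A further sub-cluster of 84 cells had AFF3, IL1A, NLRP3 and PTPRC among its leading genes. NLRP3 was a leading gene of the monocyte-like cluster as well. These cells supplied 11.14%, 26.74%, 9.99% and 10.95% of the mesenchymal UMIs, the largest share being that of 1797 library 2. The part of other cells' transcripts in their levels was not tested, and mesenchymal values without them are not given.

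Over all cells summed, the 33 genes did not separate the peptides. They made up 0.983% and 0.255% of all UMIs with the 1797 peptide, against 0.516% and 1.14% with the control peptide. The mesenchymal share of cells was 2.77% and 0.355% against 0.932% and 1.94%, without the shallow cluster, whose share was largest in control library 1 (1.93%). The groups overlapped in both measures, and 1797 library 2 was the lowest library in each. In such a sum, fewer cells of a type and less RNA per cell cannot be told apart. With the quasi-likelihood test of edgeR, 0 of the 33 genes and 0 of 16654 genes tested passed an adjusted p of 0.05 (0% of all genes). At an unadjusted p under 0.05 the counts were 0 of 33 and 264 (1.59%), and DESeq2 called 21 genes, of which 0 were among the 33. Both 1797 libraries lay above both controls in 0 of the 33 genes, against 12.6% of all genes, and below both in 0, against 12.2%.

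**Figure D3:**
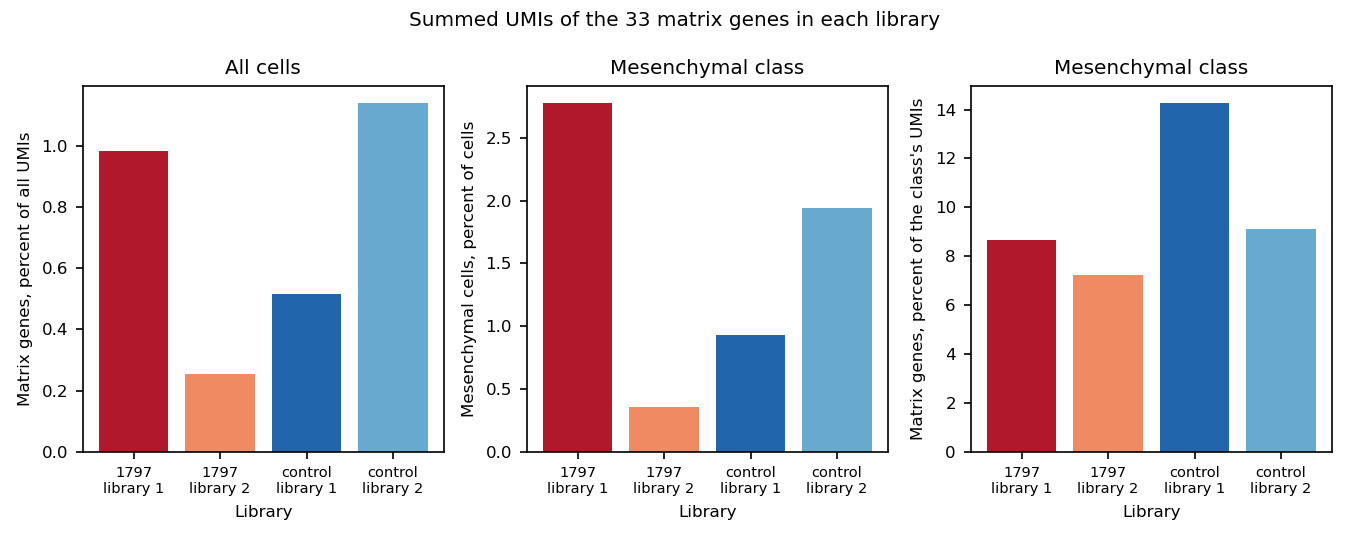
Bars give, for each of the 4 libraries, the share of all UMIs in the 33 genes (left), the share of cells in the mesenchymal class (middle) and the share of that class's UMIs in the 33 genes (right), all in percent from 0. The left and middle panels are lowest in 1797 library 2 (0.255% and 0.355%), while the right panel is highest in control library 1 (14.2%).

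COL1A1 over all cells was at 2161 and 397 CPM with 1797, against 1874 and 2809 CPM in the controls, a log2 fold change of -0.93 ± 0.79 (SE). COL3A1 was at 1043 and 122 against 139 and 1289 CPM, -0.34 ± 1.37, and SPARC at 541 and 89.7 against 215 and 529 CPM, -0.29 ± 0.91. Each gene had 1 high and 1 low library in its 1797 group. FN1 (0.50 ± 0.67), DCN (-0.60 ± 1.01), MMP13 (0.32 ± 1.31) and TIMP1 (-0.14 ± 0.24) had estimates smaller than or near their errors, and none of the 7 passed the test (edgeR adjusted p = 1.00 for each). Of the 7, TIMP1 had the smallest standard error, with levels of 677, 664, 596 and 872 CPM. The median log2 fold change was -0.21 over the 33 genes and -0.02 over all genes tested. It was -1.70 without 1797 library 1, 0.44 without 1797 library 2, -0.82 without control library 1 and 1.19 without control library 2.

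Within the mesenchymal class the 33 genes made up 8.65% and 7.22% of UMIs with 1797, against 14.2% and 9.13% in the controls. Type I collagen chains alone took 4.48% and 4.02% against 11.3% and 4.98%. In edgeR, 0 of 33 genes and 0 of 12603 genes tested passed an adjusted p of 0.05 (0% of all genes), while 1 of 33 and 299 genes (2.37%) had an unadjusted p under 0.05. DESeq2 called 3 genes, with 0 among the 33. Both 1797 libraries lay above both controls in 4 of the 33 genes, against 14.8% of all genes, and below both in 8, against 15.1%. The median log2 fold change was -0.03 over the 33 genes and -0.03 over all genes. The smallest library of this class held 45 cells.

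**Figure D4:**
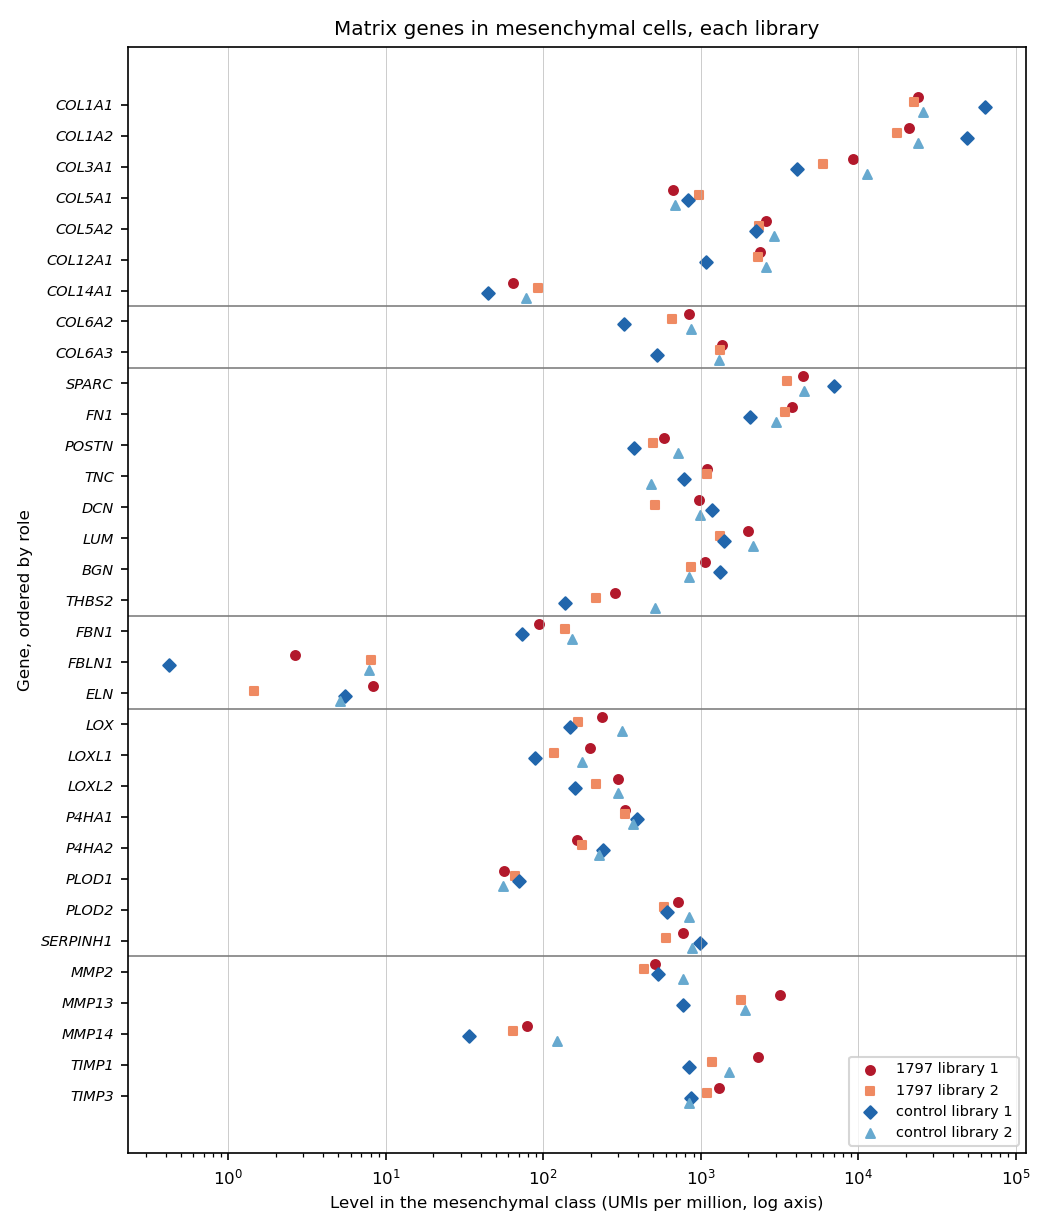
Level of each of the 33 genes (vertical axis, grouped by role) in the mesenchymal class of each library, in CPM on a log axis; red and orange points are the 1797 libraries and blue points the controls. The dark blue point of control library 1 lies to the right for COL1A1 (63860.4 CPM) and to the left for COL3A1 (4097 CPM), COL6A3 (525 CPM) and MMP13 (767 CPM).

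The 8 genes below both controls were COL1A1, COL1A2, SPARC, DCN, P4HA1, P4HA2, SERPINH1 and MMP2. COL1A1 differed by -0.96 ± 0.47 on the log2 scale (SE; edgeR adjusted p = 1.00), SPARC by -0.54 ± 0.34 and DCN, at 976 and 514 against 1179 and 989.6 CPM, by -0.56 ± 0.36. For COL1A1 the gap between control library 2 (25664 CPM) and the nearer 1797 library (23884 CPM) was far smaller than that between the controls. Without the BGLAP-led sub-cluster COL1A1 was at 17847 and 15307 against 17097 and 24018 CPM, so that the groups overlapped, and the log2 fold change was -0.24 ± 0.33. SPARC was then at 3928 and 2891 against 2591 and 4385 CPM, with 0.02 ± 0.37. COL1A2, DCN, P4HA1, SERPINH1 and MMP2 overlapped then too. P4HA2 stayed below both controls, at 154 and 156 against 166 and 219 CPM. With the SFRP4-led cells also removed it was at 160 and 150 against 166 and 241 CPM.

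The 4 genes above both controls were TNC, TIMP3, FN1 and COL6A3. TNC, a protein of wound and callus matrix, was at 1104 and 1099 against 786 and 483 CPM, a log2 fold change of 0.78 ± 0.32 (edgeR adjusted p = 1.00). Without the BGLAP-led sub-cluster TNC was at 1196 and 1178 against 1296 and 495 CPM, and the groups overlapped (0.53 ± 0.40). TIMP3 overlapped then too, at 1415 and 1156 against 1439 and 860.0 CPM. FN1 differed by 0.50 ± 0.31 and stayed apart without that sub-cluster, at 4059 and 3648 against 2756 and 3073 CPM, as did COL6A3, at 1476 and 1434 against 895 and 1353 CPM. With the SFRP4-led cells also removed both overlapped: FN1 was at 4212 and 3556 against 2756 and 3575 CPM, and COL6A3 at 1469 and 1454 against 895 and 1659.5 CPM. MMP13 (0.89 ± 0.50), TIMP1 (0.54 ± 0.43) and COL3A1 (-0.03 ± 0.51) overlapped between the groups.

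By role, the 7 fibrous and fibril-associated collagens had a median log2 fold change of -0.03 in mesenchymal cells (range -0.96 to 0.33), the 8 glycoproteins and proteoglycans -0.15 (-0.56 to 0.78), the 8 processing genes -0.20 (-0.47 to 0.23) and the 5 proteases and inhibitors 0.48 (-0.48 to 0.89). The medians were 0.43 for the 2 type VI collagen chains and 0.02 for the 3 elastic-fibre genes. None of these genes passed the adjusted test in edgeR. With control library 2 left out, the log2 fold changes were -1.48 for COL1A1, -1.38 for COL1A2, 1.69 for MMP13 and 1.34 for COL6A3. With control library 1 left out, the value of COL1A1 was -0.15. The values of the first of these fits therefore rested on control library 1 as the only control, whose spread is assumed to match that of the 1797 libraries.

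Further matrix genes were taken in 5 groups (other collagens, other proteoglycans and fibril binders, other elastic-fibre genes, other processing enzymes, other proteases and inhibitors). In edgeR, 0 of 79 tested over all cells and 0 of 72 tested in mesenchymal cells passed the adjusted threshold. At an unadjusted p under 0.05 there was 1 over all cells (1.59% of all genes) and 4 in mesenchymal cells (2.37% of all genes). Over all cells LTBP2, a latent TGF-beta binding protein, was at 3.24 and 4.79 against 2.14 and 1.96 CPM (0.97 ± 0.36). In mesenchymal cells COL18A1, a basement-membrane collagen, was at 27.0 and 30.6 against 10.5 and 9.65 CPM (1.5 ± 0.31), and LTBP1 at 293 and 333 against 140.5 and 202 CPM (0.86 ± 0.29). MMP23B, a membrane-bound protease, was at 20.3 and 15.3 against 26.2 and 40.5 CPM (-0.91 ± 0.34). MMP1, another collagenase, had 107 and 14 UMIs against 0 and 39, so its fold change of 2.37 ± 0.90 leans on a control at 0; it was 1.74 without that control. These 5 had an edgeR adjusted p of 1.00. Mesenchymal values of these genes without the BGLAP-led sub-cluster are not given.

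Outside the mesenchymal class, 11 classes had at least 20 cells in every library and were fitted separately. In edgeR, 0 genes passed the adjusted threshold in any of them, and DESeq2 called 288 genes over the 11 fits, 2 of them from the list (FN1 in macrophage-like and COL1A1 in osteoclast-like cells). Of 283 tests of listed genes that passed the filter on low counts, 19 had an unadjusted p under 0.05, against 5718 of 118592 tests of all genes. There were 0 of 28 in NK or cytotoxic T cell-like cells (3.45% of all genes), 0 of 13 in erythroid-like cells (1.53%) and 0 of 31 in neutrophil-like cells (1.05%). Without the filter on low counts edgeR called 588 genes over these fits, 14 of them listed, of which 10 were in osteoclast-like cells. How many genes were tested without the filter is not given, so no share of all genes stands beside these counts. Leaving out 1797 library 1 gave COL1A1 log2 fold changes of -3.04 in B cell-like and -2.79 in T cell-like cells. In mast cell- or basophil-like cells it gave -2.35 for COL1A1, 2.68 for COL12A1 and 3.09 for TIMP3. Leaving out control library 1 gave -4.28 for COL3A1 and -3.19 for COL6A3 in osteoclast-like cells. Such fits leave 1 library in a group.

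FN1 was higher in both 1797 libraries in macrophage-like and endothelial-like cells. In macrophage-like cells it was at 712 and 885 CPM with 1797, against 161 and 386 CPM in the controls, a log2 fold change of 1.63 ± 0.41 (edgeR adjusted p = 0.57; DESeq2 adjusted p = 0.0047). Leaving out control library 1 gave 1.13, and leaving out control library 2 gave 2.42. In this class 5 of 28 listed genes had an unadjusted p under 0.05, against 8.43% of all genes. Macrophage-like cells were drawn from several clusters. In the one led by C1QB, C1QC and APOE, FN1 was at 567 and 772 against 156 and 311 CPM, in the one led by MRC1 and CXCL10 at 1256 and 1018 against 70.9 and 1045 CPM, and in a shallow cluster led by CD5L and C1QA at 228 and 228 against 595 and 95.6 CPM. The groups stood apart in the first and overlapped in the other two. In a cluster of 69 cells led by STXBP5L and MRC1 they were apart as well, at 211 and 940.4 against 67.04 and 32.2 CPM, and a cluster of 29 cells was nearly all from control library 2. The shallow cluster held 480 of the 609 macrophage-like cells of control library 2.

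In endothelial-like cells FN1 was at 135 and 153 against 91.6 and 94.2 CPM, a log2 fold change of 0.68 ± 0.22 (edgeR adjusted p = 0.97). FN1 was the 1 listed gene of 28 with an unadjusted p under 0.05 in this class, against 4.53% of all genes. T cell-like cells, the reference for free transcripts, held FN1 at 28.3 and 16.8 against 25.9 and 85.4 CPM. The endothelial-like level thus did not reach 3 times the T cell-like one in control library 2. The part of free transcripts was not tested. In monocyte-like cells FN1 was at 174 and 399 against 368 and 570.1 CPM, overlapping. Whether the difference in FN1 varies between classes was not tested.

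THBS2 stood apart in monocyte-like and dendritic cell-like cells. It was at 30.02 and 39.1 against 15.2 and 20.8 CPM in monocyte-like cells (1.00 ± 0.24; edgeR adjusted p = 0.68), 1 of 29 listed genes under 0.05 against 6.44% of all genes. In dendritic cell-like cells it was at 34.9 and 25.9 against 11.5 and 13.1 CPM (1.33 ± 0.29; edgeR adjusted p = 0.67), in a class where 2 of 21 listed genes and 6.14% of all genes were under 0.05. Both 1797 libraries were above both controls in each class. Monocyte-like THBS2 reached 3 times its T cell-like level in every library. Dendritic cell-like THBS2 did not in control library 2, at 13.1 CPM against 5.16 CPM in T cell-like cells. In mesenchymal cells THBS2 overlapped between the groups.

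**Figure D5:**
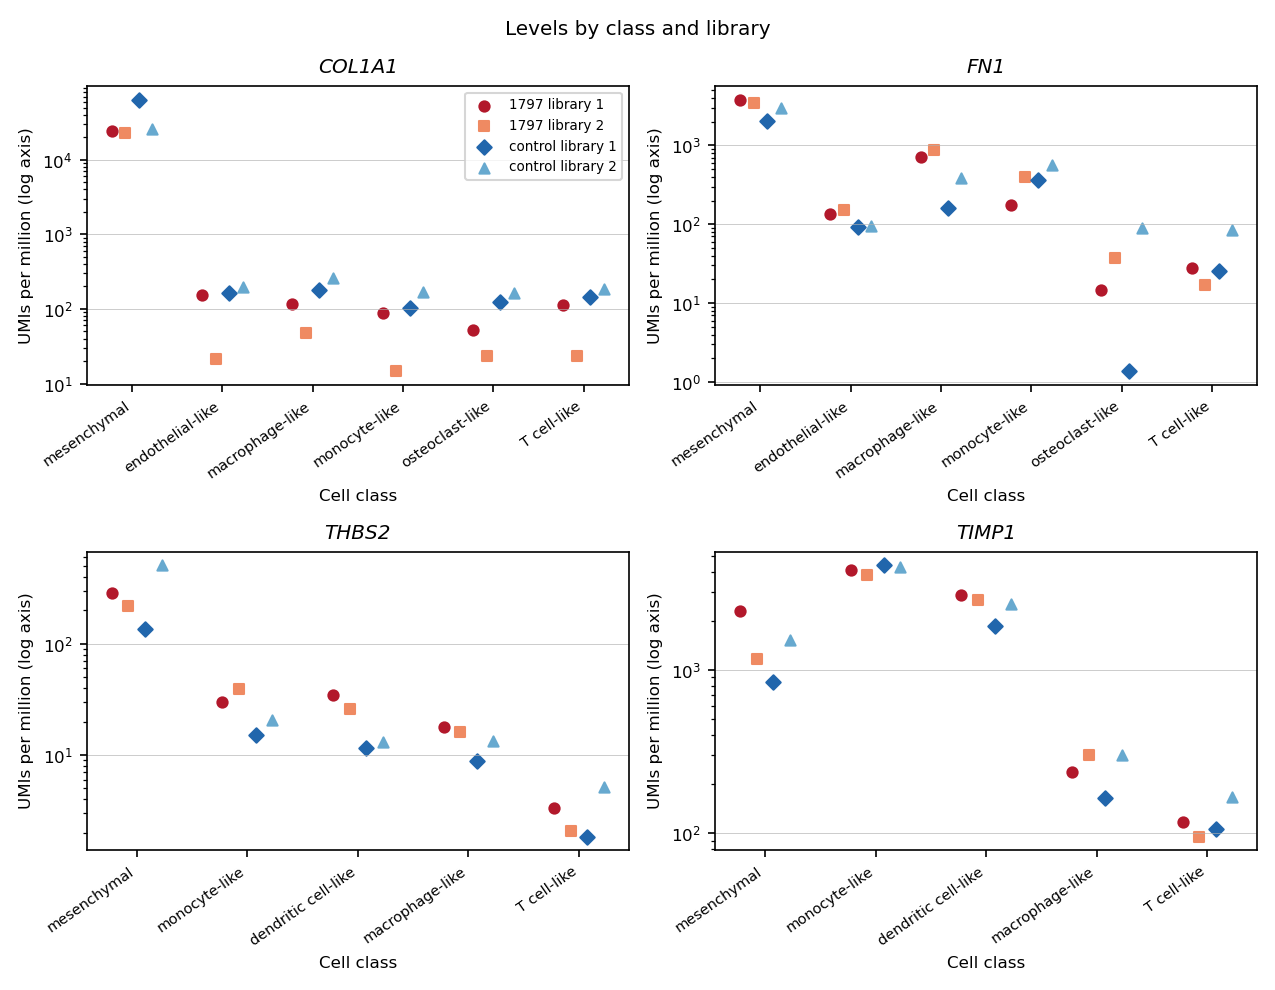
COL1A1, FN1, THBS2 and TIMP1 in selected classes, 1 point per library, in CPM on a log axis. COL1A1 is low in 1797 library 2 in every class drawn outside the mesenchymal one (14.7 to 48.1 CPM), FN1 is higher in both 1797 libraries in macrophage-like and endothelial-like cells, and TIMP1 is highest in monocyte-like cells.

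In osteoclast-like cells 7 of 18 listed genes had an unadjusted p under 0.05, against 5.08% of all genes, and in 6 of them both 1797 libraries lay below both controls. The remaining gene, COL3A1, overlapped. COL1A1 was at 51.6 and 23.2 against 124 and 163 CPM there (-1.99 ± 0.38; edgeR adjusted p = 0.65), COL1A2 at 42.1 and 8.61 against 70.3 and 158 CPM (-2.30 ± 0.69), and SPARC at 8.8 and 0.574 against 9.65 and 50.4 CPM (-3.07 ± 1.06). The value of SPARC was -5.62 without 1797 library 1 and -1.23 without control library 2. COL6A2 (-2.02 ± 0.62) and MMP13 (-2.05 ± 0.59) rested on 6 to 48 UMIs per library. P4HA1, at 42.8 and 67.1 against 86.9 and 106 CPM, had a value of -0.79 ± 0.30. COL1A1 in T cell-like cells was at 112 and 23.4 against 145 and 184 CPM. COL1A1, COL1A2, SPARC and MMP13 in osteoclast-like cells had the same order of libraries. COL1A1 and COL1A2 in T cell-like cells had this order as well. SPARC and MMP13 in T cell-like cells did not, since control library 1 lay below 1797 library 1. There SPARC was at 20.1 CPM in 1797 library 1 and 16.2 CPM in control library 1, and MMP13 at 11.7 and 2.91 CPM. In osteoclast-like cells COL6A2 and P4HA1 differed from the order of COL1A1, with 1797 library 2 above 1797 library 1. The part of free transcripts in the osteoclast-like values was not tested.

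In macrophage-like cells COL1A1 was at 116 and 48.1 against 177 and 258 CPM (-1.34 ± 0.42), COL1A2 at 66.3 and 17.2 against 115 and 254 CPM (-2.09 ± 0.66), SPARC at 14.4 and 4.08 against 19.4 and 39.6 CPM (-1.62 ± 0.62) and P4HA2 at 7.74 and 6.75 against 11.3 and 14.5 CPM (-0.75 ± 0.30). COL1A1 in dendritic cell-like cells was at 54.6 and 13.8 against 103 and 168 CPM (-1.95 ± 0.58). COL5A1 in T cell-like cells was at 3.7 and 2.45 against 6.67 and 6.56 CPM (-1.11 ± 0.28), where 1 of 33 listed genes and 4.73% of all genes were under 0.05. TIMP1 in B cell-like cells was at 28.1 and 32.3 against 42.4 and 77.5 CPM (-0.92 ± 0.29; 1 of 30 listed genes and 7.19% of all genes), far under its level in monocyte-like cells. TIMP3 in mast cell- or basophil-like cells was at 21.4 and 121 against 6.19 and 20.4 CPM (2.39 ± 0.85; 1 of 24 listed genes and 2.59% of all genes), and the high value belonged to 1797 library 2, without which the fold change was 0.78. None of these passed an adjusted p of 0.05 in edgeR. The T cell-like class, the reference for free transcripts, held COL1A1 at 112 and 23.4 against 145 and 184 CPM. Dendritic cell-like COL1A1 lay below this in every library and macrophage-like COL1A1 above it. None of the genes above, in the class named, reached 3 times its T cell-like level in every library. The COL5A1 values are those of the reference class itself. The part of free transcripts in these values was not tested.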

How the data were processed

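Single-cell libraries of regenerated pig bone, 2 from the 1797 peptide group and 2 from the control peptide group, were grouped by their titles. Deposited matrices hold whole-number UMI counts, not normalized. Per the submitters' processing notes they were made with Cell Ranger 5.0.0 on Sscrofa11.1; the matrices name version 7.0.1 per the file headers. The 33 genes and the marker and matrix lists were chosen with earlier results of these data known.

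Barcodes with at least 200 genes and under 20% mitochondrial counts were kept and 1798 Scrublet doublets (expected rate 0.1) removed. Cells were clustered in scanpy 1.11.5 (2000 variable genes without the 33, 30 principal components, 15 neighbours, Leiden resolution 1.0, 31 clusters). A cluster was named when at least 3 markers of a type exceeded 2 times the level of the other cells. Clusters of low UMI count needed 3 of those markers among their 10 leading genes; this rule was set after the clusters were seen, as was the sub-clustering of a mixed macrophage and osteoclast cluster.

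Counts were summed per class and library and tested with edgeR 4.0.16 (quasi-likelihood test, TMM, filter on low counts, Benjamini-Hochberg adjustment over all genes of a fit), 2 libraries against 2; DESeq2 1.42.0 was an alternative. The fit was tested on simulated data. Fold changes with errors are given for 7 fixed genes in the sum of all cells and the mesenchymal class, and for genes with an unadjusted p under 0.05 whose groups did not overlap. The genes called only with 1 library left out or under another setting are named after their values were seen. An exact permutation test of 2 against 2 cannot go below a two-sided p of 0.333 and was not used. Gene positions come from RefSeq's annotation of Sscrofa11.1. Alternatives covered normalization, tool, low-count filter, replicate block, each library left out, doublets, cell filter and clustering.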

Additional observations from a re-analysis of the deposited data

Results flagged for a closer look

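TIMP1 and TIMP3 had peptide differences of opposite sign in 2 pairs of cell classes, with every library of one group above every library of the other in both classes. TIMP1 was higher with 1797 in dendritic cell-like cells (log2 fold change 0.37) and lower in monocyte-like cells (-0.07), a difference of 0.43. TIMP3 was higher with 1797 in mesenchymal cells (0.48) and lower in erythroid cells (-0.75), a difference of 1.23. The erythroid levels of TIMP3 rested on 31, 73, 137 and 18 UMIs. In mesenchymal cells the TIMP3 levels of the groups overlapped without the BGLAP-led sub-cluster. Neither difference between classes was itself tested, and none of the 4 fold changes passed the adjusted edgeR threshold.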

How the results depend on the processing

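The number of genes called depended on the tool and the filter. Over all cells edgeR called 0 genes and DESeq2 21. In mesenchymal cells DESeq2 and edgeR without the low-count filter called 3 each, against 0. In the other classes together DESeq2 called 288 genes (2 listed), no filter 588 (14 listed) and the replicate block 5, against 0. With each library left out, the calls ranged from 0 to 127 genes and 0 to 4 listed genes in mesenchymal cells, and from 89 to 192 genes and 0 to 7 listed genes in the other classes. The median log2 fold change of the listed genes then ranged from -1.70 to 1.19 over all cells and from -0.20 to 0.45 in mesenchymal cells.

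Over all cells, leaving out 1 library moved COL3A1 between -2.49 and 2.03, SPARC between -1.99 and 0.52, FN1 between -0.12 and 1.65, DCN between -2.51 and 0.41, MMP13 between -1.70 and 2.56 and TIMP1 between -0.38 and 0.17. In mesenchymal cells COL3A1 ranged from -0.57 to 0.88 and TIMP1 from -0.0098 to 1.03. Other reversals were COL3A1 (0.89), SPARC (1.08) and DCN (0.35) over all cells without the mesenchymal and shallow clusters, an alternative chosen after seeing the data. In mesenchymal cells they were COL3A1 with the replicate block (0.12) and with doublets kept (0.0080), and SPARC without the BGLAP-led sub-cluster (0.024), also chosen after seeing the data. The cause was not tested.

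The labels do not say that replicate numbers pair the libraries. Same-numbered libraries deviated with a correlation of -0.31 over all cells and -0.10 in mesenchymal cells, and the block with crossed numbers called 0 genes in both. The mesenchymal class of 1797 library 2, with 45 cells, limits every comparison in that class.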

Other observations

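Of 11 other collagens tested in mesenchymal cells, both 1797 libraries were above both controls in 5 (14.8% of all genes were), below both in 0 (15.1% of all genes were), and overlapped the controls in 6, with a median log2 fold change of 0.39. Among those that overlapped, 3 had negative values, COL24A1 (-1.10), COL13A1 (-0.62) and COL8A1 (-0.36). Of 19 other processing genes, the 1797 libraries were above in 1 and below in 9, with a median of -0.30. In edgeR 0 genes of either group passed the adjusted threshold, and 1 and 0 had an unadjusted p under 0.05. No test of either group as a whole was made. BGLAP-led cells supplied 42.1% of the mesenchymal UMIs of control library 1, and values without them are not given for either group.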
